A study of Mus musculus with 6 samples.

Results

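Metallothioneins, zinc transporters and copper-handling proteins were followed through 10 genes, *Mt1*, *Mt2*, *Slc30a1*, *Slc30a10*, *Slc39a4*, *Slc39a5*, *Slc39a8*, *Slc39a14*, *Cp* and *Atp7b*, chosen by name from the 31950 genes of a mouse liver expression table. Each of the 10 had 1 line in the table and passed the expression filter. RNA-seq had been done on livers of 3 WT mice and 3 β-cateninΔ(ex3)/+ mice, all C57BL/6 and 8 weeks old by their labels, with 1 library per liver and no further treatment named. β-cateninΔ(ex3)/+ livers carry 1 *Ctnnb1* allele without exon 3, a deletion that stabilises β-catenin, next to 1 normal allele. The study deleted the exon by more than 1 route (an albumin promoter-driven Cre, an adenovirus carrying Cre, and a tamoxifen-induced, albumin-driven Cre). It uses the name β-cateninΔ(ex3)/+ for livers of the tamoxifen route, but its RNA-seq methods name neither the route nor the sex of these mice. Values are FPKM, the fragments of a gene scaled by the length of its transcript and by the mapped fragments of the library.

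Metallothioneins are small cysteine-rich proteins that bind zinc and copper, and their genes are switched on by the zinc-sensing factor MTF1 through metal response elements in their promoters, as well as by glucocorticoids and inflammation. In the liver they are known to be abundant around birth. The SLC39 (ZIP) transporters move zinc and related metals into the cytosol and the SLC30 (ZnT) transporters move them out, while ATP7B loads copper onto ceruloplasmin (*Cp*) and sends the excess into bile.

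In the β-cateninΔ(ex3)/+ livers *Mt1*, *Mt2* and *Slc39a5* fell, *Slc30a10* rose, and the other 6 genes changed by less than 2-fold or did not pass the test. *Slc39a5* moved furthest, from a mean of 13.3 FPKM in WT to 0.258 FPKM in β-cateninΔ(ex3)/+ livers. Together the metallothioneins fell from 387 to 92.9 summed FPKM. *Cp* and *Slc39a14*, at 94.1 and 11.1 FPKM in WT livers, stayed at 88.7% and 92.2% of those means.

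The library labels were checked first. *Ctnnb1* had 25.9, 27.9 and 27.3 FPKM in the WT livers and 25.4, 25.2 and 25.0 FPKM in the β-cateninΔ(ex3)/+ livers, and a value per gene does not show the loss of 1 exon. Of 10 β-catenin targets and pericentral genes 8 were higher past both thresholds (adjusted p under 0.05 and at least 2-fold) in β-cateninΔ(ex3)/+ livers. *Cyp2e1* of that list was lower by less than 2-fold (log2 fold change -0.23, limma adjusted p = 0.0112). Periportal genes did not fall as a list, with 4 of 9 higher past both thresholds and 1 lower. Over all genes tested 8.17% were higher and 4.52% lower past both thresholds. Hepatocyte markers were abundant in each liver but went unequal ways: *Alb* was at 39620 to 43340 FPKM in WT and 24720 to 25010 FPKM in β-cateninΔ(ex3)/+ livers, *Ttr*, *Apoa1* and *Ahsg* were lower past both thresholds and *Hnf4a* was higher, and the 7 markers summed to 80610 to 83040 and 36340 to 36570 FPKM. The WT livers went against their labelled age of 8 weeks: genes of the fetal and newborn liver, which are normally shut down after birth, were at 3961 to 4028 summed FPKM in WT and 9.41 to 10.6 summed FPKM in β-cateninΔ(ex3)/+ livers, with 11 of the 11 tested lower in the latter. *Xist* was expressed in the WT livers and Y-linked genes in the β-cateninΔ(ex3)/+ livers, so genotype, the young-liver genes and sex-linked expression cannot be told apart for any gene below. Markers of neutrophils and myeloid precursors fell as a list (7 of 7 tested, from 346 to 371 summed FPKM in WT to 31.0 to 32.8 in β-cateninΔ(ex3)/+ livers). Past 2-fold, those of stellate cells fell in 3 of 6, those of erythroid cells in 4 of 6 and those of endothelial cells in 2 of 6. At any fold change 6 of 6 were lower in each of these lists, against 19.6% of all genes tested. Endothelial markers went from 78.1 to 80.1 summed FPKM in WT to 49.9 to 51.8 in β-cateninΔ(ex3)/+ livers. Past both thresholds 1 of 4 cholangiocyte markers tested (*Spp1*) and 1 of 2 lymphocyte markers tested (*Cd79a*) were lower, and *Nkg7* of the latter list was higher by less than 2-fold. Of 8 Kupffer cell markers 5 rose and 1, *Marco*, fell. In RNA of whole liver, fewer cells of a type and less RNA per cell cannot be told apart. Depth, inferred from the spacing of low values, was 24.4 to 24.7 M fragments in WT and 16.9 to 19.5 M in β-cateninΔ(ex3)/+ libraries.

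Promoter sequences are shown for the 4 genes that passed both thresholds, since the metal response element is the best known control of metallothionein genes. For each, the 250 bases before the start site annotated by RefSeq (GRCm38.p6) are printed 5′ to 3′ on the gene's strand, with matches to the core of the metal response element (TGCACNC or TGCGCNC, on either strand) in capitals. They are *Mt1* at chr8:94178839-94179088 (+), *Mt2* at chr8:94172368-94172617 (+), *Slc30a10* at chr1:185454598-185454847 (+) and the outer of 2 starts of *Slc39a5* at chr10:128401225-128401474 (-).
Mt1: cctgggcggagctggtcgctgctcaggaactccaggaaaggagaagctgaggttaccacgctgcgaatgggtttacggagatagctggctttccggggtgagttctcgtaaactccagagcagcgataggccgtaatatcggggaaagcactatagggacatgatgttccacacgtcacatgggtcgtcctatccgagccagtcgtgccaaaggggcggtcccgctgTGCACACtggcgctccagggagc
Mt2: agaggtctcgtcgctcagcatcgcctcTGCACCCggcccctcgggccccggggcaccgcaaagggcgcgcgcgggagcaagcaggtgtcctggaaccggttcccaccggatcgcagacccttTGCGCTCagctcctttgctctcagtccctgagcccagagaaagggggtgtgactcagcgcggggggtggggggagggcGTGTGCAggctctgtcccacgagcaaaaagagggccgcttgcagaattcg
Slc30a10: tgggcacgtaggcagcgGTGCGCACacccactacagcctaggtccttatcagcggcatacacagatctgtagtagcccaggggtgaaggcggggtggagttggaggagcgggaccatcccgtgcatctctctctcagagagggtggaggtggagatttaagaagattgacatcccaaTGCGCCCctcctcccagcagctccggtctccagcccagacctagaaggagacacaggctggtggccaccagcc
Slc39a5: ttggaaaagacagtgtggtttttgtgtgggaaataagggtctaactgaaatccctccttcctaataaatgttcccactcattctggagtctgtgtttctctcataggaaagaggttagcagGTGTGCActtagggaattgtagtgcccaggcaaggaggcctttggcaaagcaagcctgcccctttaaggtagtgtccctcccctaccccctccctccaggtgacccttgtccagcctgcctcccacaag

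RefSeq gave 11 promoters for 8 of the 10 genes, not for *Slc39a4* and *Slc39a14*, each read from 250 bases before to 50 after the start. Over this 300-base window *Mt2* held 4 matches to the core, *Mt1* 3, *Slc30a10* 3 (2 of which overlap on opposite strands), *Slc30a1* 2, and *Atp7b*, 1 start of *Slc39a8* and the outer start of *Slc39a5* 1 each. Neither start of *Cp* held one. Among 32851 mouse promoters of the same length 25.7% held a match, 7.11% held 2 or more, 1.97% held 3 or more and 0.517% held 4 or more. Over the whole window *Mt1*, which fell, and *Slc30a10*, which rose, had 3 matches each. Before the annotated start *Mt1* had 1 and *Slc30a10* had 3. The other matches of *Mt1* lay just after that start, at bases 2 to 8 and 20 to 26. The starts used in these livers were not measured, and matches beyond the window were not counted. The comparison thus depends on the annotated start and the window, and the equal counts do not show that the 2 promoters are alike. The part of these matches in the levels was not tested. The TCF letters CTTTGAT or CTTTGTT, present in 9.33% of all promoters, occurred once, in the outer start of *Cp*, and the antioxidant response element core TGACNNNGC, present in 12.4%, occurred in *Mt2*, *Slc30a1*, the outer start of *Slc39a8* and, 2 times, the inner start of *Slc39a5*. Such matches describe letters in a window and are not measured binding.

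**Figure D1:**
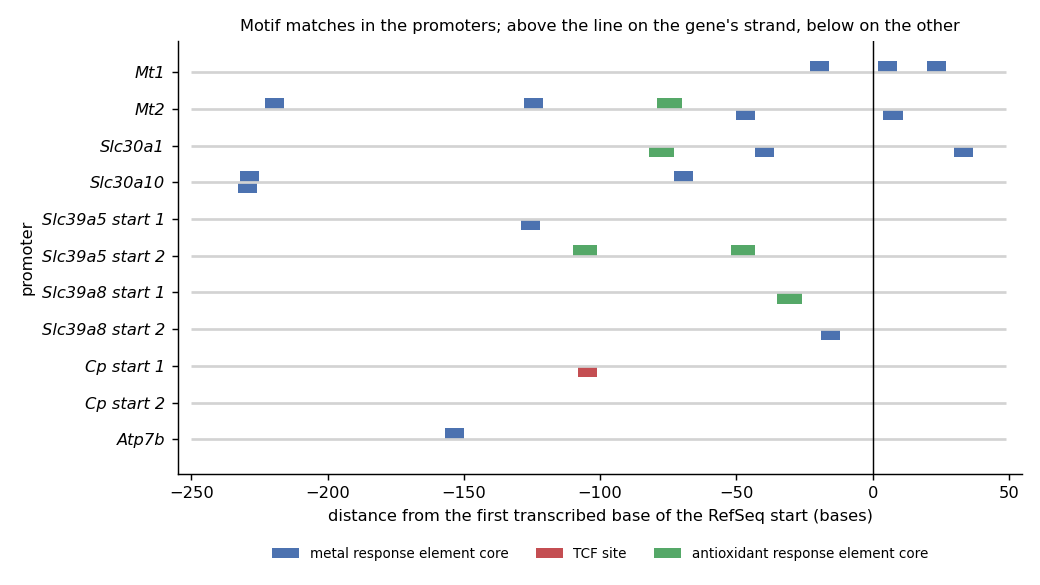
Positions of motif matches in the 11 promoters, in bases from the first transcribed base of the RefSeq start (vertical line at 0); boxes above a line lie on the gene's strand and boxes below it on the other strand. *Mt2* has 4 matches to the metal response element core, and *Mt1* and *Slc30a10* have 3 each.

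The metallothionein genes were compared first. *Mt1* (ENSMUSG00000031765, chromosome 8 from 94179082 to 94180327, plus strand) had 250.9, 207.5 and 250.0 FPKM in the WT livers and 39.1, 33.1 and 38.1 FPKM in the β-cateninΔ(ex3)/+ livers. The groups were far apart, and the lowest WT liver was still above every β-cateninΔ(ex3)/+ liver. Its mean fell from 236 ± 24.8 to 36.8 ± 3.20 FPKM (SD, n = 3 per group), 6.42-fold, with a log2 fold change of -2.65 (SE, the standard error, 0.098; adjusted p = 4.81e-06 by limma; 95% interval -2.89 to -2.41). By that change it was number 82 from the lowest among the 13243 genes tested.

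*Mt2* (ENSMUSG00000031762, chromosome 8 from 94172664 to 94173568, plus strand), whose protein binds metal in the same way, lies 5514 bases from *Mt1*. It had 164.8, 122.9 and 164.0 FPKM in the WT livers and 53.0, 63.0 and 52.4 FPKM in the β-cateninΔ(ex3)/+ livers, again without overlap. WT replicate 2 was the lowest of its group for both metallothioneins, whereas β-cateninΔ(ex3)/+ replicate 2 was the lowest of its group for *Mt1* and the highest for *Mt2*. The mean of *Mt2* fell from 151 ± 24.0 to 56.1 ± 5.92 FPKM (SD, n = 3 per group), 2.68-fold, with a log2 fold change of -1.40 (SE 0.14; adjusted p = 0.000294 by limma). Exons of *Mt2* overlap those of the antisense gene *Gm45774*, at 4.08 FPKM in WT and 0.989 FPKM in β-cateninΔ(ex3)/+ livers; the libraries were made to keep strand, but the counting setting is not given in the sources used here.

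Because *Mt1* fell further than *Mt2*, the balance within the pair turned over. The ratio of *Mt1* to *Mt2* was 1.52, 1.69 and 1.52 in the WT livers and 0.737, 0.526 and 0.728 in the β-cateninΔ(ex3)/+ livers (p = 0.1 by a two-sided exact permutation test, which with 3 livers against 3 cannot go lower). *Mt1* was thus the more abundant metallothionein in each WT liver and *Mt2* in each β-cateninΔ(ex3)/+ liver. The pair took 0.0868% of all FPKM in WT and 0.0198% in β-cateninΔ(ex3)/+ livers. Of the other metallothioneins, *Mt3*, which is known from brain, was at most 0.0558 FPKM in a liver and *Mt4*, known from stratified epithelia, was listed at 0 in all 6.

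**Figure D2:**
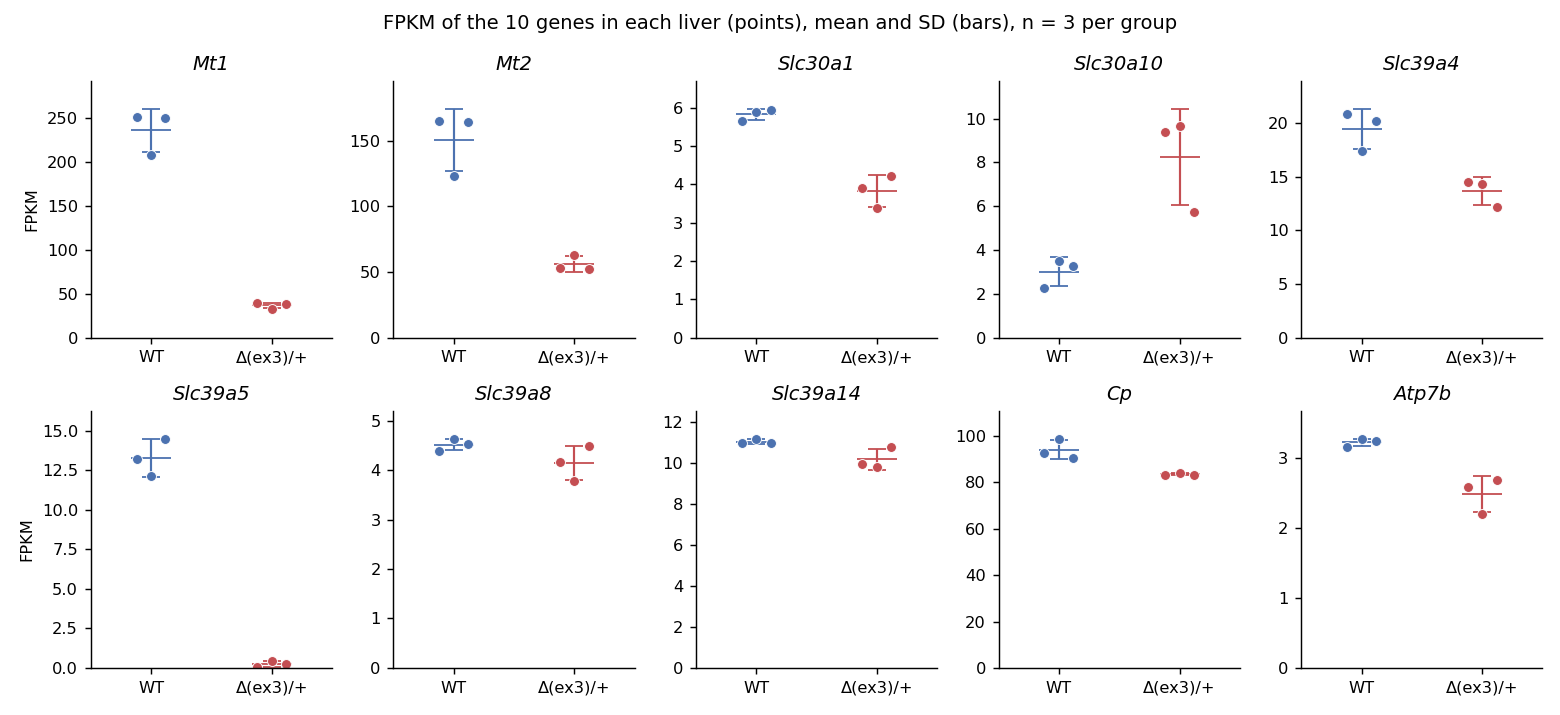
FPKM of the 10 genes in each WT (blue) and β-cateninΔ(ex3)/+ (red) liver, each panel on its own linear axis from 0; points are livers and bars the mean and SD (n = 3). *Mt1*, *Mt2* and *Slc39a5* are lower and *Slc30a10* is higher in every β-cateninΔ(ex3)/+ liver, and *Slc39a8* is the gene whose groups overlap.

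Among the zinc importers *Slc39a5* (ENSMUSG00000039878, chromosome 10 from 128395931 to 128401229, minus strand), which encodes ZIP5, a transporter of liver, pancreas and intestine, was nearly lost. It had 13.2, 12.1 and 14.5 FPKM in the WT livers and 0.0707, 0.447 and 0.256 FPKM in the β-cateninΔ(ex3)/+ livers, roughly 3, 15 and 10 fragments at the estimated depths and the length of its longest transcript. The β-cateninΔ(ex3)/+ mean was 1.94% of the WT mean, a ratio of 51.5. Its log2 fold change was -3.51 (SE 0.13; adjusted p = 4.26e-06 by limma), which the pseudocount holds down: with 0.1 in place of 1 it was -5.37. Of its neighbours *Nabp2*, 166 bases away, had a log2 fold change of 0.75 and *Gm17201*, 368 bases away, one of -0.81, neither past 2-fold. Markers of pancreatic acinar cells were at or near 0 in both groups, with *Cpa1* and *Ctrb1* listed at 0 in all 6 livers and 4 markers together at 0.142 to 0.630 summed FPKM in WT livers. The enterocyte markers *Sis* and *Alpi* were listed at 0 in all 6 livers, while *Fabp2*, which hepatocytes also express, fell from 133 to 20.8 mean FPKM.

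*Slc39a4* (chromosome 15 from 76612383 to 76617384, minus strand), which encodes ZIP4, best known as the importer of dietary zinc in the gut, had the highest FPKM of the 4 importers chosen. It had 20.9, 17.4 and 20.2 FPKM in the WT livers and 14.5, 14.3 and 12.1 FPKM in the β-cateninΔ(ex3)/+ livers. The groups did not overlap, and its log2 fold change was -0.48 (SE 0.096; adjusted p = 0.00639 by limma), short of 2-fold. For each FPKM of *Slc39a4* the WT livers had 0.683 ± 0.042 FPKM of *Slc39a5* and the β-cateninΔ(ex3)/+ livers 0.0191 ± 0.013 (SD, n = 3 per group).

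ZIP8 and ZIP14, encoded by *Slc39a8* and *Slc39a14*, carry manganese and iron as well as zinc. *Slc39a8* (chromosome 3 from 135825279 to 135888572, plus strand) had 4.40, 4.63 and 4.53 FPKM in the WT livers and 4.17, 3.78 and 4.49 FPKM in the β-cateninΔ(ex3)/+ livers, so the groups overlapped. Its log2 fold change was -0.10 (SE 0.066; adjusted p = 0.224 by limma; 95% interval -0.27 to 0.058). *Slc39a14* (chromosome 14 from 70303469 to 70351425, minus strand) had 11.0, 11.2 and 11.0 FPKM in the WT livers and 9.98, 9.81 and 10.8 FPKM in the β-cateninΔ(ex3)/+ livers. Its groups were close without overlap, and its log2 fold change was -0.11 (SE 0.050; adjusted p = 0.108 by limma; 95% interval -0.23 to 0.013). For these importers the intervals leave out a 2-fold change. After quantile normalization, which centres all genes lower, their log2 fold changes were -0.29 and -0.38 with limma adjusted p of 0.0126 and 0.00134, and both stayed within 2-fold.

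The exporters went opposite ways. *Slc30a10* (ENSMUSG00000026614, chromosome 1 from 185454848 to 185468762, plus strand), which encodes ZnT10, known above all as an exporter of manganese, had 2.27, 3.51 and 3.25 FPKM in the WT livers and 9.41, 9.64 and 5.72 FPKM in the β-cateninΔ(ex3)/+ livers. Every β-cateninΔ(ex3)/+ liver was above every WT liver, although replicate 3 lay well below the other β-cateninΔ(ex3)/+ livers. The mean rose from 3.01 ± 0.652 to 8.26 ± 2.20 FPKM (SD, n = 3 per group), 2.74-fold, with a log2 fold change of 1.19 (SE 0.22; adjusted p = 0.00441 by limma). After quantile normalization it was 0.98 (limma adjusted p = 0.0094) and no longer reached 2-fold. Its exons overlap those of the antisense gene *Gm2061*, at 0.289 FPKM in WT and 1.17 FPKM in β-cateninΔ(ex3)/+ livers, and fragments of the pair may have been shared in the counting.

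*Slc30a1* (chromosome 1 from 191906767 to 191913247, plus strand), which encodes ZnT1, the zinc exporter of the plasma membrane and, like the metallothioneins, a target of MTF1, had 5.65, 5.89 and 5.93 FPKM in the WT livers. It had 3.90, 3.38 and 4.22 FPKM in the β-cateninΔ(ex3)/+ livers, with no overlap. Its log2 fold change was -0.50 (SE 0.076; adjusted p = 0.00206 by limma), in the direction of the metallothioneins but short of 2-fold. The ratio of *Slc30a10* to *Slc30a1* was 0.516 ± 0.10 in WT and 2.21 ± 0.768 in β-cateninΔ(ex3)/+ livers (SD, n = 3 per group; p = 0.1 by the same exact permutation test).

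The copper genes *Cp* and *Atp7b* were both lower by less than 2-fold. *Cp* (ENSMUSG00000003617, chromosome 3 from 19957054 to 20009145, plus strand), which encodes the copper-carrying ferroxidase of plasma, had 92.8, 98.8 and 90.7 FPKM in the WT livers and 83.1, 84.0 and 83.3 FPKM in the β-cateninΔ(ex3)/+ livers. The β-cateninΔ(ex3)/+ livers were all below the WT livers and differed from each other by little. Its log2 fold change was -0.17 (SE 0.040; adjusted p = 0.0131 by limma), and its exons overlap those of *Hps3*, at 0.411 and 0.628 FPKM. *Atp7b* (ENSMUSG00000006567, chromosome 8 from 21992785 to 22060305, minus strand), the copper pump affected in Wilson disease, had 3.16, 3.26 and 3.23 FPKM in the WT livers and 2.57, 2.20 and 2.68 FPKM in the β-cateninΔ(ex3)/+ livers. Its log2 fold change was -0.28 (SE 0.069; adjusted p = 0.0158 by limma), without overlap between the groups.

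Counted together, 4 of the 10 genes were past both thresholds of the study's methods (an adjusted p under 0.05 and at least 2-fold), against 12.7% of all genes tested. *Slc30a10* was the 1 that was higher, against 8.17% of all genes, and *Mt1*, *Mt2* and *Slc39a5* were the 3 that were lower, against 4.52%. At any fold change 8 had an adjusted p under 0.05, against 57.0% of all genes, 1 of them higher (37.4%) and 7 lower (19.6%). The median log2 fold change of the 10 genes was -0.38, against 0.14 for all genes tested. For 9 of the 10 genes no WT liver lay within the range of the β-cateninΔ(ex3)/+ livers (1 higher and 8 lower), against 66.0% of all genes tested (43.0% higher and 23.0% lower). The 10 genes were chosen with earlier results of these data known, so these counts describe them and are no test of enrichment.

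**Figure D3:**
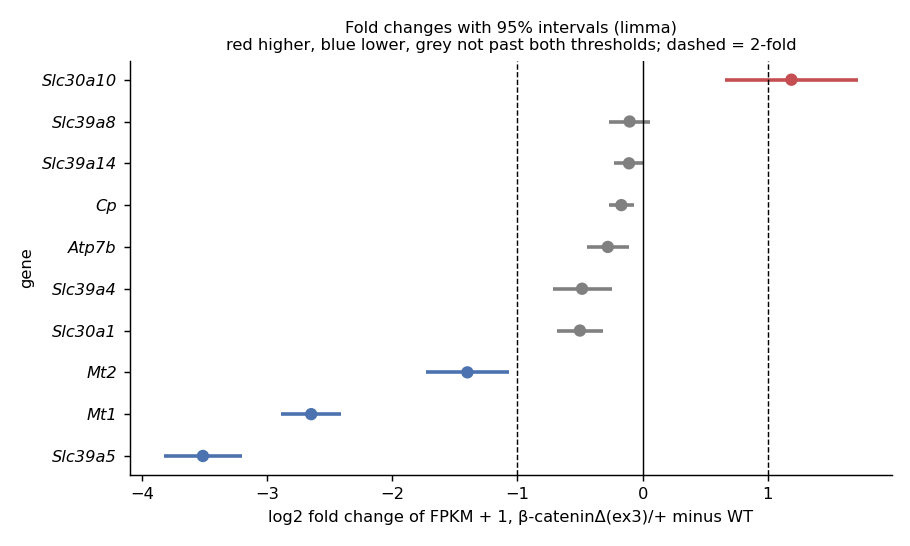
Log2 fold changes (FPKM + 1, β-cateninΔ(ex3)/+ minus WT) of the 10 genes from limma, with 95% intervals as horizontal lines; dashed lines mark 2-fold, and red, blue and grey mark higher, lower and not past both thresholds. *Slc39a5* (-3.51), *Mt1* (-2.65) and *Mt2* (-1.40) lie below and *Slc30a10* (1.19) above the 2-fold lines.

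The order of the levels also changed. In WT livers the mean FPKM ran from *Mt1* over *Mt2*, *Cp*, *Slc39a4*, *Slc39a5*, *Slc39a14*, *Slc30a1* and *Slc39a8* to *Atp7b* and *Slc30a10*, and the livers overlapped between neighbours for the last pair. In β-cateninΔ(ex3)/+ livers *Cp* came first, followed by *Mt2*, *Mt1*, *Slc39a4*, *Slc39a14*, *Slc30a10*, *Slc39a8*, *Slc30a1*, *Atp7b* and *Slc39a5*, with *Slc39a8* and *Slc30a1* as the neighbours that overlapped. *Slc39a5* moved from position 5 to position 10 and *Slc30a10* from position 10 to position 6. Over all genes of the table *Mt1* was number 184 by mean FPKM in WT and number 1221 in β-cateninΔ(ex3)/+ livers.

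The wider zinc transporter families were taken from a fixed list of 24 SLC30 and SLC39 genes, of which 23 were in the table and 19 were tested. Besides the 6 described above, 13 were tested. Of these 1 was past both thresholds and higher, against 8.17% of all genes tested. At any fold change 4 were higher, against 37.4% of all genes, 1 was lower, against 19.6%, and 8 did not pass. *Slc39a11*, which encodes the Golgi zinc transporter ZIP11, was the one that passed, with 1.91, 2.16 and 2.27 FPKM in WT and 6.90, 6.84 and 7.15 FPKM in β-cateninΔ(ex3)/+ livers (log2 fold change 1.36, SE 0.062, adjusted p = 1.2e-05 by limma). *Slc39a1*, which encodes the plasma membrane importer ZIP1, had the highest FPKM of the families, 26.0, 26.8 and 25.5 in WT and 38.1, 38.2 and 37.2 in β-cateninΔ(ex3)/+ livers (log2 fold change 0.52, limma adjusted p = 7.5e-05). *Slc39a7*, the ZIP7 gene of the secretory pathway, had the largest standard error of the log2 fold change among the 19 (0.42), with 6.12, 13.0 and 8.19 FPKM in WT and 11.1, 13.5 and 31.0 FPKM in β-cateninΔ(ex3)/+ livers, and did not pass (limma adjusted p = 0.128). The median log2 fold change of the 19 genes was 0.13, close to that of all genes.

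**Figure D4:**
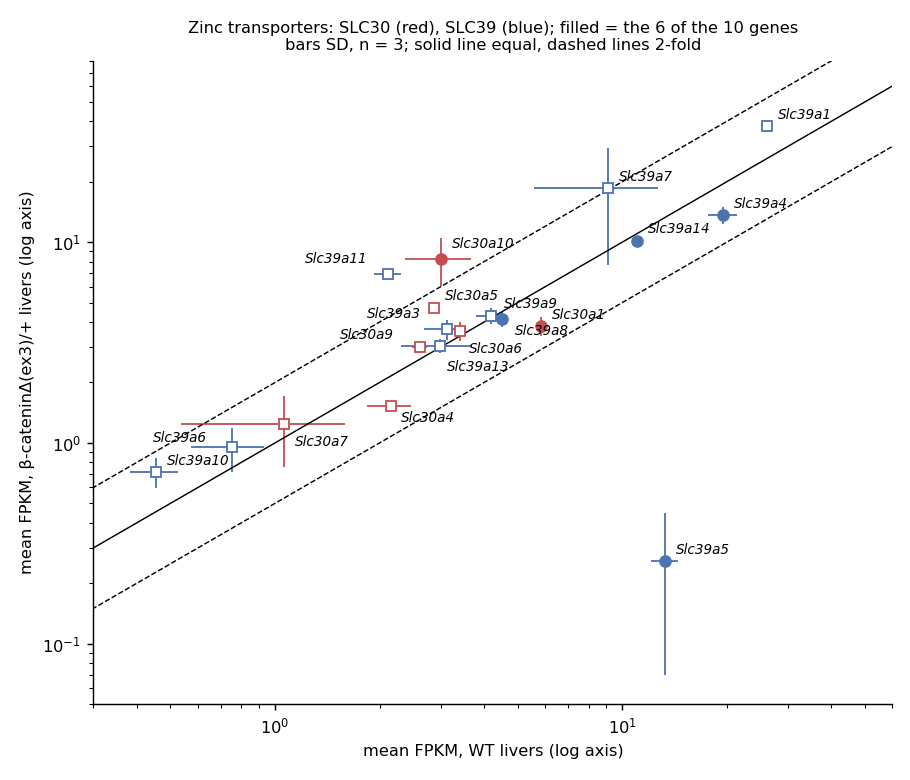
Mean FPKM of the 19 SLC30 (red) and SLC39 (blue) genes tested, WT against β-cateninΔ(ex3)/+ livers on log axes, with bars for the SD (n = 3); filled circles are 6 of the 10 chosen genes, the solid line marks equal levels and the dashed lines 2-fold. *Slc39a5* lies far below the lower dashed line, and *Slc39a11* and *Slc30a10* lie above the upper one.

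A list of zinc-sensing and zinc-responsive genes showed no common direction, with 3 higher and 3 lower of 6 tested at any fold change. Over all genes tested 37.4% were higher and 19.6% lower. This list leaves out *Mt1*, *Mt2* and *Slc30a1*, which are described above. *Mtf1* itself had 0.829, 0.667 and 0.879 FPKM in WT and 1.33, 1.23 and 1.45 FPKM in β-cateninΔ(ex3)/+ livers (log2 fold change 0.38, limma adjusted p = 0.00589). *Mtf1*, a gene of low level, was higher by less than 2-fold in the livers in which *Mt1*, *Mt2* and *Slc30a1* were lower. The activity of MTF1 was not measured, and its part in these levels was not tested. *Gclc*, the catalytic subunit of glutathione synthesis and another MTF1 target, was lower (log2 fold change -0.42, limma adjusted p = 0.00044). Past both thresholds were *Selenow*, a selenoprotein, at 1.22 and *Ndrg1*, a stress-responsive gene, at -1.04 on the log2 scale. *Selenow* missed 2-fold after quantile normalization (0.99), and *Ndrg1* missed it without β-cateninΔ(ex3)/+ replicate 3 (-0.99).

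The copper lists held 36 genes, of which 35 were in the table and 24 were tested, including *Cp* and *Atp7b*. Of these 3 were past both thresholds, 2 higher and 1 lower, a share close to the 12.7% of all genes tested. At any fold change 6 were higher, against 37.4% of all genes, 10 were lower, against 19.6%, and 8 did not pass. *Steap4*, a metalloreductase for iron and copper, had 25.1, 26.3 and 24.8 FPKM in WT and 59.7, 59.0 and 62.7 FPKM in β-cateninΔ(ex3)/+ livers (log2 fold change 1.22, limma adjusted p = 3.88e-06). *Sco2*, a copper chaperone of cytochrome c oxidase, rose by 1.29 on the log2 scale, but 63.4% of the 50-base windows of its longest transcript also stand in transcripts of *Tymp*, an overlapping gene at 25.2 and 67.2 FPKM, so its own value is uncertain. *Loxl2*, a copper-dependent enzyme of collagen crosslinking, fell by 1.37 on the log2 scale, and 42.6% of its 150-base windows are shared with *Gm21451*; stellate cell markers fell beside it, from 85.5 to 87.5 summed FPKM in WT to 28.2 to 35.3 in β-cateninΔ(ex3)/+ livers, and their part in it was not tested. *Atox1*, which hands copper to ATP7B, had 169.0, 155.9 and 153.5 FPKM in WT and 95.5, 90.8 and 93.5 FPKM in β-cateninΔ(ex3)/+ livers, a log2 fold change of -0.77 (limma adjusted p = 3.89e-05). *Sod1*, the copper enzyme gene of highest FPKM, had 167.7, 165.4 and 167.0 FPKM in WT and 225.0, 219.0 and 221.2 FPKM in β-cateninΔ(ex3)/+ livers. Its log2 fold change was 0.41 (limma adjusted p = 4.78e-05). Of 8 copper enzyme genes tested it was the 1 that was higher at any fold change, and 7 were lower. The lower ones were *Cp*, *Sod3* and *Pam* and, of the family of *Loxl2*, *Lox*, *Loxl1*, *Loxl3* and *Loxl2* itself. The part of stellate cells in this count was not tested. *Slc31a1*, which encodes the copper importer CTR1, had a log2 fold change of 0.17 (limma adjusted p = 0.0131), which became -0.021 with median-ratio scaling and -0.097 with quantile normalization.

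Of 8 manganese transport genes tested, *Slc30a10* was the one past both thresholds, against 12.7% of all genes tested. *Slc11a2*, the divalent metal importer DMT1, had a log2 fold change of 0.75 and *Slc40a1*, the iron exporter ferroportin, one of -0.80 (limma adjusted p = 0.000448 and 4.7e-05). On unscaled FPKM *Slc30a10* thus rose while the importers *Slc39a8* and *Slc39a14* of the same list did not pass the test. With median-ratio scaling both importers were lower within 2-fold (log2 fold change -0.26 and -0.29, limma adjusted p = 0.0153 and 0.0036). *Slc30a10* was then at 1.03 (limma adjusted p = 0.00867).

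Genes that respond to inflammation and to glucocorticoids, known inducers of metallothioneins that were not themselves measured, moved in several ways in the same livers. Of 18 acute phase genes 9 were higher past both thresholds, among them *Orm1*, *Orm2*, *Saa1* and *Saa2*, with mean FPKM in WT and β-cateninΔ(ex3)/+ livers of 0.711 and 1854, 0.422 and 317, 1.35 and 259, and 0.417 and 92.5. None of the 18 passed both in the other direction, and 7 were lower at any fold change. Over all genes tested 8.17% were higher and 4.52% lower past both thresholds, and 19.6% were lower at any fold change. *Mt1* and *Mt2* were thus lower in livers in which these acute phase genes were higher. Glucocorticoid-responsive genes were divided, with 4 of 12 higher and 4 lower; *Tat* had a log2 fold change of 2.75 and *G6pc* one of -2.05. The part of these signals, and of the young-liver genes, in the levels of the 10 genes was not tested.

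Over the 6 livers *Enho*, *Plg*, *Marco*, *Btbd7* and *Galk1* had the levels most like that of *Mt1*, with Pearson r of 0.9993 to 0.9997 on log2(FPKM + 1). Since the 2 groups stand apart, r is high for genes that were steadily lower in the β-cateninΔ(ex3)/+ livers, and 1510 of 13242 genes had r above 0.95. *Mt2* was number 951 in that order (r = 0.977) and *Slc39a5* number 421 (r = 0.992). This order rests on 6 livers in 2 separate groups, so it does not show which genes are regulated together with *Mt1*.

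The size of these differences depended on the processing. Across 13 alternatives each, the log2 fold change of *Mt1* ranged from -2.89 to -2.58, that of *Mt2* from -1.64 to -1.33, that of *Slc39a5* from -5.37 to -3.40 and that of *Slc30a10* from 0.98 to 1.41. Each of the 10 genes kept its direction in all 13. Median-ratio scaling moved the median of all genes by -0.14 and quantile normalization by -0.16, and single genes moved by more: *Slc39a14* went from -0.11 to -0.38 and *Cp* from -0.17 to -0.42 with quantile normalization.

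**Figure D5:**
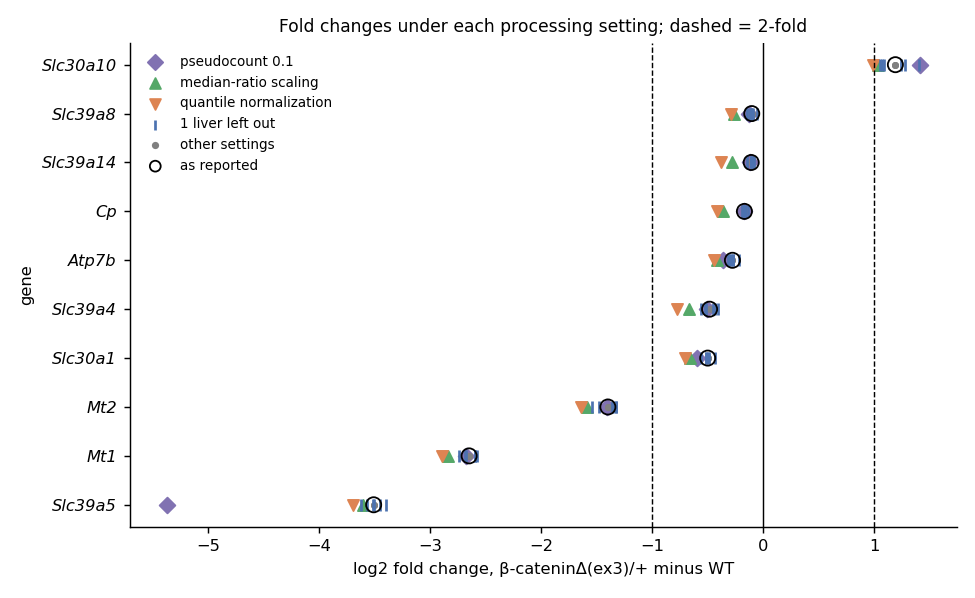
Log2 fold changes of the 10 genes as reported (open circles) and under each alternative (symbols), with dashed lines at 2-fold; ticks are fits with 1 liver left out. Each gene stays on its side of 0, *Slc39a5* reaches -5.37 with a pseudocount of 0.1, and *Slc30a10* is at 0.98 after quantile normalization.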

How the data were processed

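RNA from 3 WT and 3 β-cateninΔ(ex3)/+ livers was compared, grouped by the sample labels. The authors deposited FPKM for 31950 genes. Per the submitters' processing notes cutadapt 1.9, HISAT2 2.0.4, StringTie 1.3.4d, DESeq2 and edgeR were used, in roles and with a genome build not given in the sources used here. Start and end matched GENCODE M21 (GRCm38) for 28911 of them, and from it lengths, overlaps and transcripts were read. FPKM are not counts, so no count test was run and no counting intervals are given; library depth was inferred from the spacing of low values in 8644 single-exon genes, on whose steps 22.8% to 33.2% of the low values lay.

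From the FPKM, log2(FPKM + 1) was computed for 13243 genes with a mean of at least 0.5 FPKM. limma 3.58.1 (lmFit, eBayes with a trend) in R 4.3.3 was fitted over the 6 livers, with Benjamini-Hochberg adjustment over all genes tested; fold changes on this scale understate those of low genes. The p-values set the difference between the groups against the spread between these livers, whose litters and days are not given. They do not separate genotype from the young-liver genes and sex-linked expression. Named were the 10 genes, list genes past both thresholds (at most 6 per metal list), the gene of highest FPKM in each, and the 5 genes most correlated with *Mt1*. *Slc39a7*, *Slc31a1*, *Mtf1*, *Gclc*, *Slc11a2*, *Cyp2e1*, marker genes at 0 and the overlapping and neighbouring genes were added after their values were seen. The 10 genes and all lists were chosen with earlier results of these data known. The rest was done in Python 3.11.15 with scipy 1.17.1, numpy 2.4.6, pandas 2.3.3 and, for plots, matplotlib 3.10.9. Alternatives were another pseudocount, other filters, scalings and limma settings, the replicate block, each liver left out, and any fold change.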

Additional observations from a re-analysis of the deposited data

How the results depend on the processing

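With a pseudocount of 0.1 there were 2705 genes past both thresholds over the whole table, against 1680, and 4 copper genes lower, against 1. Median-ratio scaling gave 2 copper genes lower. Quantile normalization gave 0 of the 10 genes higher (*Slc30a10* kept a limma adjusted p of 0.0094 and missed 2-fold at 0.98), 1 SLC30 or SLC39 gene higher, 1 copper gene higher and 2 lower. At any fold change there were 7551 genes, with 7 of the 10 genes lower, 5 SLC30 or SLC39 genes higher and 4 lower, and 6 copper genes higher and 10 lower. The fits without 1 liver gave 1647 to 1707 genes.

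Of 659 comparisons of 51 genes, 624 showed no change of sign or of call, 4 became weaker, 6 stronger and 25 turned sign. The genes that turned were at -0.13 to 0.17 as reported, and none was among the 10. With median-ratio scaling and with quantile normalization the log2 fold changes were -0.088 and -0.12 for *Slc30a6*, -0.11 and -0.13 for *Slc39a13*, -0.12 and -0.15 for *Slc39a9*, -0.096 and -0.14 for *Cox11*, -0.14 and -0.20 for *Slc25a3*, and -0.021 and -0.097 for *Slc31a1*; *Slc30a9* was -0.0048 after quantile normalization. Fits without 1 liver ranged across 0, from -0.10 to 0.27 for *Slc30a7*, -0.10 to 0.15 for *Slc39a13*, -0.0059 to 0.092 for *Slc39a9*, -0.029 to 0.14 for *Cox11*, -0.39 to 0.0060 for *Cox19*, -0.076 to 0.030 for *Slc31a2* and -0.23 to 0.038 for *Steap3*. The cause was not tested.

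With the replicate number as a block 1673 genes were past both thresholds and none of the counts for the 10 genes or the metal lists changed. The numbers do not pair the livers, since deviations of same-numbered livers correlated at 0.027, 0.021 and -0.0054. FPKM keep no counts, so the level of *Slc39a5* in β-cateninΔ(ex3)/+ livers, a few fragments each, is imprecise.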
